A study of Mus musculus with 6 samples.

Results

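Among the genes read on 6 mouse liver arrays are 10 factors that hold or restore the pluripotent state of stem cells: Nanog, Pou5f1, Sox2, Klf4, Lin28a, Sall4, Esrrb, Zfp42, Utf1 and Myc. They were taken as a list of gene symbols, chosen with earlier results of these data known. Each had 1 probe set (the group of array probes that reads 1 gene), and they are 10 of the 19505 genes named on the array. The AAV-PIK3CD group (arrays 51, 52 and 53) came from adult male C57BL/6 mice given an AAV8 vector, an adeno-associated virus that enters hepatocytes, in which the liver-specific TBG promoter drives the coding sequence of mouse PI3Kδ, the delta catalytic subunit of class I phosphoinositide 3-kinase encoded by Pik3cd. The AAV-control group (arrays 48, 49 and 50) came from mice of the same strain and sex given a vector with EGFP under the same promoter, which the array methods instead call empty, so that if EGFP was present the groups differ in it too. The injection is given once as into the portal vein and elsewhere as into the tail vein. The comparison asked whether genes of stem cells differ in liver that receives PI3Kδ. The labels name the tissue as tumour. All 12 hepatocyte markers examined lay above the array median in the controls, which cannot tell normal liver from a tumour of hepatocytes. Nothing in the sources ties an array to an animal beyond calling the arrays individual samples, so p-values apply to these 6 samples and not to a known number of animals.

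NANOG, OCT4 (the product of Pou5f1) and SOX2 bind together at many enhancers of embryonic stem cells, including those of their own genes, and so keep one another active. KLF4, ESRRB and SALL4 join this network as DNA-binding partners, ZFP42 (also called REX1) and UTF1 are outputs that mark the undifferentiated state, LIN28A blocks the maturation of the let-7 microRNAs, and MYC drives ribosome production and growth. OCT4, SOX2, KLF4 and MYC together can return a differentiated cell to pluripotency. Most of these genes are silent in adult hepatocytes, whereas Myc and Klf4 are also growth and stress responsive genes of many tissues.

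Windows of 250 bases before and 50 bases after a transcript start were found for 8 of the 10 members among the RefSeq promoters (build GRCm38.p6). The windows shown belong to the 3 members whose values in the 2 groups did not overlap. Capitals mark 4 motifs searched on both strands: the octamer core TTTGCAT bound by OCT4, the core ACAATG bound by SOX proteins, the E-box CACGTG bound by MYC with MAX, and the GC box GGGCGG bound by SP and KLF proteins.
Nanog, chr6:122707239-122707538, plus strand: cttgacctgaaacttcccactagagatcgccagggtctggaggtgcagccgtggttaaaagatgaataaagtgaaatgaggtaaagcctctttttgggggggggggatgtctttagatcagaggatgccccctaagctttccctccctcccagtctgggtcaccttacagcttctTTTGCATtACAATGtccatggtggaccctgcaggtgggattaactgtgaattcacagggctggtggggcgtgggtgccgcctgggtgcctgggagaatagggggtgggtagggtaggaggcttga
Lin28a, chr4:134018767-134019066, minus strand: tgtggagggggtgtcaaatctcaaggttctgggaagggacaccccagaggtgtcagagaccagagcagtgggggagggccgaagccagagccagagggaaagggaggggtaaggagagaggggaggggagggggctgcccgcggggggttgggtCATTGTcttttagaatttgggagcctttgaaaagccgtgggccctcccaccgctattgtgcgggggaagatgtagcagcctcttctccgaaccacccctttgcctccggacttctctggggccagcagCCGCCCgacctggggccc
Utf1, chr7:139943606-139943905, plus strand: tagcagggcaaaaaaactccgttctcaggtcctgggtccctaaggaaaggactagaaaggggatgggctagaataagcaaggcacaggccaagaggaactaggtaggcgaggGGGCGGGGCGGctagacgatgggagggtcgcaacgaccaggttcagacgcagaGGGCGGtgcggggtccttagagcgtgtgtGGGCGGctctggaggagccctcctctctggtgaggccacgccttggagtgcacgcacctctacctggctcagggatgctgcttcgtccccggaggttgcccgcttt
In Nanog the octamer core began 75 bases before the transcript start and the SOX core 67 bases before it, with 1 base between them. The 8 members had 11 windows. The octamer core was present in 4.63% of all 32851 windows and in 4 of the 11, from 3 members (Nanog, Sox2 and Zfp42). The SOX core was present in 12.6% of all windows and in 5 of the 11, from 4 members (Nanog, Pou5f1, Lin28a and Esrrb). The Nanog windows overlap and share the same matches. In Pou5f1 the SOX core lay only in a window at a transcript start inside the gene. The E-box occurred in 7.15% of all windows and in 1 of the 11, that of Klf4. The GC box occurred in 35.7% of all windows and in 6 of the 11, from 6 members, with 4 matches in Utf1, of which 2 overlap. The Lin28a window lies at a transcript start inside the annotated gene and not at its outer end. These matches are descriptions of the letters in the windows. The study's mouse primers are shown next because they define which stretches of Nanog and Pou5f1 the study amplified from liver. Whether the array probes read the same stretches was not tested.
Nanog, first pair, forward: gaacgcctcatcaatgcctgca
Nanog, first pair, reverse: gaatcagggctgccttgaagag
Nanog, second pair, forward: agggtctgctactgagatgctctg
Nanog, second pair, reverse: caaccactggtttttctgccaccg
Pou5f1, forward: ctgtagggagggcttcgggcactt
Pou5f1, reverse: ctgagggccaggcaggagcacgag

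None of the 10 members passed the test. Rank products, which orders the genes within each of the 9 pairings of an AAV-PIK3CD with an AAV-control array, called 0 members at an adjusted p of 0.05 over all 22206 probe sets, where it called 9 probe sets (0.0405%). The moderated linear fit of limma also called 0 members, and it called 0 probe sets (0%), with a lowest adjusted p of 0.932. Before adjustment, at p under 0.05, rank products counted 1 member as higher (Lin28a), against 2.85% of all probe sets, and 1 as lower (Myc), again against 2.85%. Limma at the same unadjusted level counted 1 member as higher (Lin28a), against 2.49%, and 1 as lower (Utf1), against 2.58%. All 3 AAV-PIK3CD arrays lay above all 3 control arrays for 2 members (Nanog and Lin28a), against 4.47% of probe sets, and below them for 1 member (Utf1), against 4.97%. Of the members, 7 had a mean above and 3 a mean below that of the controls, with a median difference of 0.05 on the log2 scale beside -0.0067 over all probe sets. Of all 22206 probe sets, 10602 had a mean above that of the controls, which is also the reference for the counts of higher and lower means in the lists below.

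**Figure D1:**
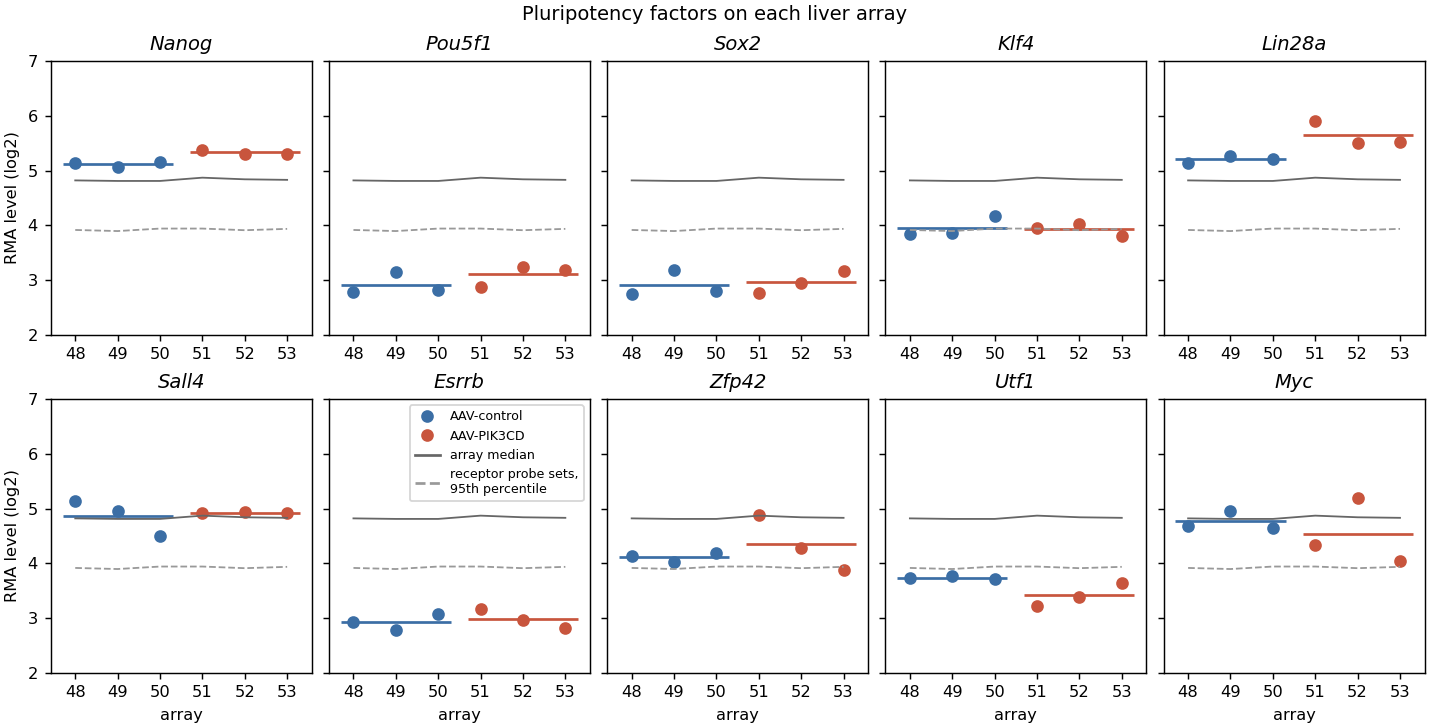
RMA levels (log2, vertical axis) of the 10 pluripotency factors on the 3 AAV-control arrays (blue) and the 3 AAV-PIK3CD arrays (red), with group means as short bars, the array median as a solid line and the 95th percentile of the receptor probe sets as a dashed line. Nanog and Lin28a lie above the array median on all 6 arrays, Pou5f1, Sox2, Klf4, Esrrb and Utf1 below it on all 6, and only in Nanog, Lin28a and Utf1 do the groups not overlap.

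The array median lay between 4.81 and 4.87 on the 6 arrays. As a second reference, 1412 probe sets for olfactory and vomeronasal receptors, genes of sensory neurons, had medians between 2.84 and 2.89 and a 95th percentile between 3.89 and 3.94. Probe sets differ in how strongly they bind, so the level of 1 member cannot be set against that of another. In the controls 3 members (Nanog, Lin28a and Sall4) had a mean above the array median and the other 7 below it. In a bulk sample, fewer cells of a type and less RNA per cell cannot be told apart. Germ cells share several of these factors, and a list of 10 germ cell markers had a mean level of 3.83 to 3.95 in the controls and 3.75 to 3.86 in AAV-PIK3CD.

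Nanog, the homeodomain factor that stabilises self-renewal, read 5.13, 5.07 and 5.15 on the control arrays and 5.37, 5.31 and 5.31 on the AAV-PIK3CD arrays. The groups did not overlap, and the readings within each lay close together, at 5.12 ± 0.04 against 5.33 ± 0.03 (log2, SD, n = 3). The difference was 0.21 (SE 0.11, 95% interval -0.03 to 0.46), with an unadjusted rank products p = 0.261 and an exact permutation p = 0.1, the smallest that 3 arrays against 3 allow. With any array left out the difference stayed between 0.19 and 0.23. The annotation lists 2 Nanog pseudogenes, and reads of such copies by the same probes were not tested.

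Pou5f1 codes for OCT4, the POU factor without which pluripotent cells are not formed. It read 2.78, 3.14 and 2.82 in the controls and 2.88, 3.24 and 3.19 in AAV-PIK3CD, below the array median on all 6 arrays. Between 39.9% and 77.5% of the receptor probe sets read lower on the same array, so Pou5f1 stood within the range of receptor genes. The groups overlapped, and the difference was 0.19 (SE 0.15, 95% interval -0.14 to 0.52), with a range of 0.12 to 0.30 when 1 array was left out. The annotation lists 5 Pou5f1 pseudogenes, of which 4 are transcribed.

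Sox2, the HMG-box partner of OCT4, read 2.75, 3.18 and 2.80 in the controls and 2.77, 2.94 and 3.16 in AAV-PIK3CD. The highest and the lowest array were both controls, and the difference of 0.05 (SE 0.15) turned to -0.06 without array 53 and reached 0.18 without array 49. Esrrb, an orphan nuclear receptor that can stand in for NANOG in mouse stem cells, read 2.92, 2.78 and 3.08 in the controls and 3.16, 2.96 and 2.81 in AAV-PIK3CD. Its groups overlapped as well, and its difference of 0.05 (SE 0.14) was -0.04 without array 51. Sox2 and Esrrb read below the array median on all 6 arrays.

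Klf4, a zinc finger factor of the reprogramming set that is also made in epithelia, read 3.84, 3.85 and 4.17 in the controls and 3.95, 4.02 and 3.81 in AAV-PIK3CD. The difference was -0.03 (SE 0.13), and its sign changed without array 50 (0.08) or without array 53 (0.03). Sall4, a zinc finger factor of stem cells and fetal liver, read 5.14, 4.95 and 4.50 in the controls and 4.91, 4.93 and 4.91 in AAV-PIK3CD. The 3 AAV-PIK3CD arrays lay inside the range of the controls, and the difference of 0.05 (SE 0.16) was -0.13 without array 50.

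Lin28a had the largest positive difference of the 10 members. It read 5.13, 5.26 and 5.22 in the controls and 5.91, 5.51 and 5.52 in AAV-PIK3CD, above the array median on all 6 arrays. Array 51 was the highest, and the lowest AAV-PIK3CD array still lay above the highest control. The means were 5.20 ± 0.07 and 5.65 ± 0.23 (log2, SD, n = 3), a 1.36-fold difference (0.44, SE 0.14, 95% interval 0.14 to 0.75). The size of this difference exceeded that of 98.5% of all probe sets, yet the rank products p of 0.0143 came to an adjusted p = 0.745 and the limma p of 0.00907 to an adjusted p = 0.932. Without array 51 the difference was 0.31, and without array 52 it was 0.51. For comparison, Pik3cd itself read 4.66, 4.34 and 4.48 in the controls and 4.78, 5.14 and 4.86 in AAV-PIK3CD, a difference of 0.43 (SE 0.14). Its groups did not overlap, yet neither test called it (rank products adjusted p = 0.676, limma adjusted p = 0.932). Whether its probes lie in the coding sequence that the vector carries is not given in the sources used here.

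Zfp42, the zinc finger gene known as Rex1, read 4.14, 4.02 and 4.19 in the controls and 4.89, 4.27 and 3.87 in AAV-PIK3CD. Array 51 was the highest and array 53 the lowest of all 6, so the AAV-PIK3CD arrays lay on both sides of the controls. The difference of 0.23 (SE 0.22, 95% interval -0.25 to 0.70) rested on array 51, since it was -0.05 without it and 0.46 without array 53. Utf1, a chromatin-bound factor of undifferentiated cells, read 3.73, 3.76 and 3.72 in the controls and 3.21, 3.39 and 3.64 in AAV-PIK3CD. All 3 AAV-PIK3CD arrays were below the controls, which spanned a narrow range (3.74 ± 0.02 against 3.41 ± 0.22, SD, n = 3), and all 6 arrays were below the array median. The difference was -0.32 (SE 0.13, 95% interval -0.62 to -0.03), with a limma p of 0.0360 that came to an adjusted p = 0.932 and a rank products p of 0.0787 that came to an adjusted p = 0.924. It was -0.22 without array 51 and -0.44 without array 53.

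Array 51 held transcripts of other tissues. The 12 measured markers of pancreatic acinar cells, which make digestive enzymes, averaged 7.20 on array 51 and 3.92 to 4.06 on the other 5 arrays, 9 of the 12 being highest there. The 8 skeletal muscle markers averaged 5.10 on array 51 and 3.89 to 4.10 on the others, with 8 of 8 highest there. Array 51 was also the highest array for 4 of the 10 members and the lowest for Utf1, while array 52 and control array 49 were each the highest for 2. The share of all probe sets that were highest on array 51 was not computed, and this array also had the highest array median (4.87). The part of these other tissues in the members' values was not tested. Without array 51 the acinar markers differed by a median of -0.02. The skeletal muscle markers still differed by a median of 0.17 without it, against 0.445 with all arrays. The median difference of the members without array 51 was 0.0092. The differences of Nanog and Lin28a remained positive without array 51 (0.19 for Nanog, 0.31 for Lin28a).

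Myc, the growth regulator of the reprogramming set, was the most variable member. It read 4.68, 4.96 and 4.65 in the controls and 4.34, 5.20 and 4.04 in AAV-PIK3CD, so that the highest and the lowest array both carried the PI3Kδ vector. Its within-group SD of 0.44 exceeded that of 98.7% of all probe sets, for which the median was 0.17. The difference of -0.24 (SE 0.25, 95% interval -0.79 to 0.31) was -0.57 without array 52 and 0.0067 without array 53. Rank products put Myc lower at an unadjusted p of 0.0341, with an adjusted p = 0.836. The limma fit gave an unadjusted p of 0.362 and an adjusted p = 0.952, and the exact permutation test gave p = 0.5. Rank products takes no account of the spread of a gene within its group, which was wide for Myc.

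**Figure D2:**
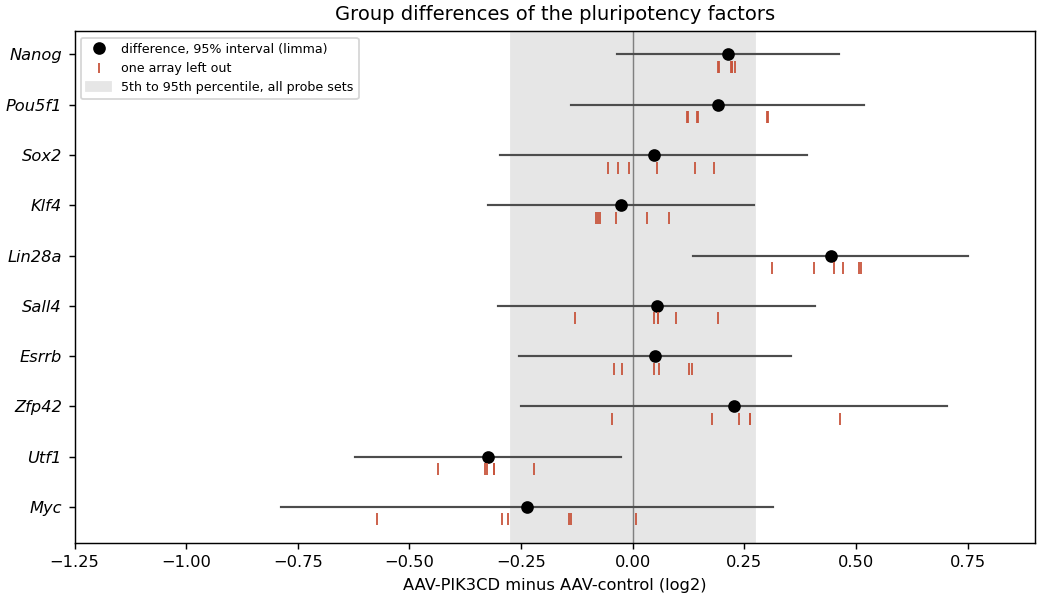
Difference of each pluripotency factor (AAV-PIK3CD minus AAV-control, log2, horizontal axis) with its 95% limma interval, the 6 values with 1 array left out as red ticks below it, and the 5th to 95th percentile of all probe sets as a grey band (-0.27 to 0.27). Lin28a (0.44) and Utf1 (-0.32) lie outside the band with intervals that exclude 0, and the ticks of Sox2, Klf4, Sall4, Esrrb, Zfp42 and Myc fall on both sides of 0.

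The wider pluripotency network was read through 2 lists of genes that are not members. Of 18 measured transcription factors that act with the members, 10 had a higher and 8 a lower mean in AAV-PIK3CD, with a median of 0.02, and 0 were called by rank products or limma. Tbx3, a T-box factor of stem cells and liver growth, read 5.84, 5.95 and 6.28 in the controls and 6.68, 6.69 and 6.06 in AAV-PIK3CD (difference 0.45, SE 0.19). The zinc finger factor Zfp281 read 6.94, 7.48 and 7.30 against 7.81, 7.58 and 7.49, with no overlap (0.39, SE 0.16). In the opposite direction Nacc1, a NANOG-binding protein, read 6.02, 6.07 and 6.27 in the controls against 5.73, 5.75 and 5.70 (-0.39, SE 0.12). Stat3, which carries the LIF signal in mouse stem cells, and Tcf7l1, the repressor at the end of the WNT pathway in those cells, were also below all controls, and both are named after their values were seen. Thus 1 of the 18 lay above all controls, where 4.47% of all probe sets did, and 3 below, where 4.97% did.

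Of 24 markers and outputs of pluripotent cells, among them Dppa, Lefty and Fgf genes, 12 had a higher and 12 a lower mean, with a median of -0.0017 and 0 calls. In the controls 2 of the 24 lay above the array median. Trim71, a stem cell RNA-binding protein that is itself a let-7 target, read 3.97, 4.11 and 4.41 in the controls and 4.37, 4.75 and 4.66 in AAV-PIK3CD (0.43, SE 0.15), with 1 AAV-PIK3CD array inside the control range. The de novo DNA methyltransferase Dnmt3b differed by 0.17 (SE 0.19), with a range of 0.01 without array 53 to 0.35 without array 52. Alpl, the alkaline phosphatase that stains stem cell colonies and is also made in liver, was below all controls (-0.25, SE 0.12). Over both lists, 42 genes, the median was 0.01 with 22 genes higher, 1 above all controls (against 4.47% of all probe sets) and 4 below (against 4.97%).

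Since LIN28A acts through let-7, the other genes of that pathway were examined. Of 9 measured, 7 had a higher mean and 0 were called, with a median of 0.12 that ranged from 0.04 without array 48 to 0.15 without array 51. Lin28b, the paralog made in fetal liver, read 4.09, 3.81 and 4.43 in the controls and 3.94, 4.28 and 4.25 in AAV-PIK3CD (0.05, SE 0.17). The let-7 target Hmga2 read 5.20, 5.54 and 4.71 in the controls and 5.52, 5.52 and 5.31 in AAV-PIK3CD, all 3 inside the control range, and its difference of 0.30 (SE 0.19) was 0.08 without array 50. Igf2bp3, another target, differed by 0.21 (SE 0.16) with overlapping groups and by 0.08 without array 52. Trim71 of the previous list counts here too. Dicer1, which cuts the let-7 precursor, was below all controls (7.12 ± 0.05 against 6.90 ± 0.17, SD, n = 3), and with Lin28b it is named after its values were seen.

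The families that the members belong to are largely made of factors with roles in differentiated tissue, and 49 of their other genes were measured. Of these 35 had a higher mean and 0 were called. All 3 AAV-PIK3CD arrays lay above the controls for 6 (against 4.47% of all probe sets) and below them for 1, Pou4f3 (against 4.97%). The median of 0.07 was 0.12 without array 50 and 0.12 without array 53. The mean level of this list was 4.74 to 4.83 in the controls and 4.88 to 4.90 in AAV-PIK3CD. Of the 49, 16 were at their highest on array 51, a count that again has no share over all probe sets beside it, and without this array the median was 0.08. Sox15, the close relative of SOX2 made in mouse stem cells and muscle precursors, read 4.05, 3.94 and 4.01 in the controls and 4.85, 4.29 and 4.33 in AAV-PIK3CD (0.49, SE 0.16, and 0.31 without array 51). Sox6 differed by 0.58 (SE 0.19) with overlapping groups. Sox1, Sox3 and Sox11, like the POU gene Pou2f3 and the MYC relative Mycl, lay above all controls, and with Pou4f3 they are named after their values were seen. Klf10, a TGF-beta induced relative of Klf4, differed by 0.33 (SE 0.30, from 0.15 to 0.67 with 1 array left out), with values of 6.04, 6.91 and 5.92 in the controls and 5.95, 6.94 and 6.97 in AAV-PIK3CD.

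MYC binds DNA as a dimer with MAX, and MXD proteins compete for the same partner. Of 11 measured partners and antagonists 7 had a lower mean and 0 were called. Their median of -0.07 turned to 0.0067 without array 49 and was -0.03 without array 51 and -0.13 without array 53, and 2 lay below all controls, against 4.97% of all probe sets. Max read 6.18, 6.07 and 6.15 in the controls and 5.95, 5.66 and 5.67 in AAV-PIK3CD, with no overlap (-0.37, SE 0.13). Mxd4 was likewise below all controls (-0.28, SE 0.12), whereas Mlxipl, the glucose-sensing ChREBP, differed by 0.16 (SE 0.27, from -0.02 to 0.51 with 1 array left out).

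Among 23 measured MYC target genes, mostly of ribosome production and nucleotide or polyamine synthesis, 19 had a lower mean in AAV-PIK3CD, with a median of -0.15. None was called after adjustment. Before adjustment rank products counted 7 of the 23 as lower (2.85% of all probe sets) and 0 as higher (2.85%), and limma 5 as lower (2.58%) and 0 as higher (2.49%). Of the 23, 5 lay below all controls, against 4.97% of all probe sets: Srm, Wdr12, Cdk4, Pes1 and Nop16, of which the last 3 are named after their values were seen. Spermidine synthase (Srm) read 7.83, 7.94 and 7.98 in the controls and 7.11, 7.50 and 7.42 in AAV-PIK3CD (-0.57, SE 0.14, rank products adjusted p = 0.430). The ribosome assembly factor Wdr12 read 7.46, 6.94 and 7.31 against 6.68, 6.61 and 6.78 (-0.55, SE 0.15), and Cad, which begins pyrimidine synthesis, differed by -0.35 (SE 0.19, from -0.56 to -0.21 with 1 array left out) with overlapping groups. The mean level of the list was 7.38 to 7.49 in the controls and 7.23 to 7.27 in AAV-PIK3CD, and its median difference ranged from -0.22 without array 49 to -0.09 without array 50 and was -0.16 without array 51. These levels did not order the arrays as Myc did, since array 52, the highest for Myc, had 20 of the 23 targets below their control mean, and array 53, the lowest for Myc, had 21. On array 51, where Myc was also low, 13 of the 23 were below. Control array 49 had 15 and control arrays 48 and 50 had 8 each. The control mean includes the control arrays themselves, so their counts cannot be set against those of AAV-PIK3CD arrays. The mean level of the list was 7.27 on array 51 and 7.38 on array 49.

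**Figure D3:**
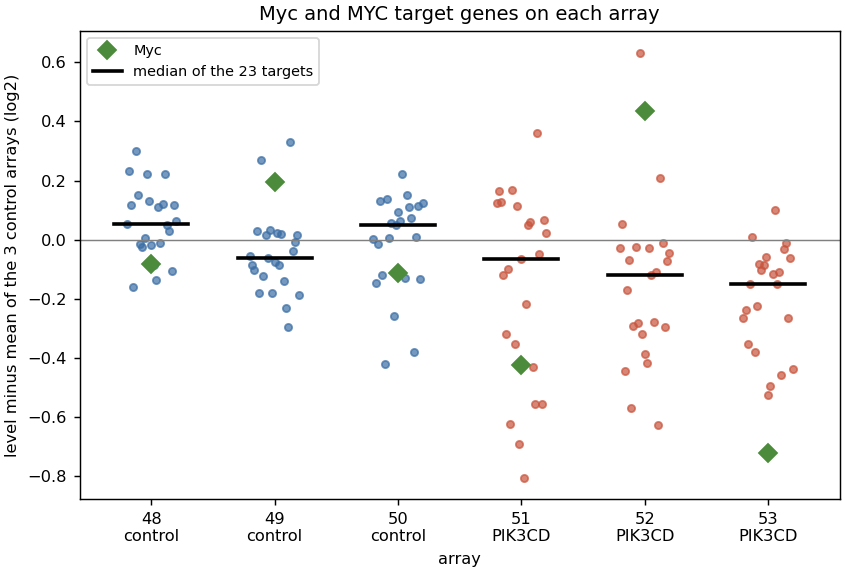
Level minus the mean of the 3 control arrays (log2, vertical axis) for 23 MYC target genes (points), their median (black bars) and Myc (green diamonds) on each array, with control arrays in blue and AAV-PIK3CD arrays in red. The target medians are -0.07, -0.12 and -0.15 on arrays 51, 52 and 53, while Myc stands at -0.42, 0.44 and -0.72.

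Immediate early genes respond, like Myc, within minutes to growth signals and to tissue handling. Of 21 measured, 16 had a higher mean and 0 were called, and 7 lay above all controls (against 4.47% of all probe sets) and 0 below (against 4.97%). Their median of 0.13 ranged from 0.09 without array 48 to 0.26 without array 53 and was 0.20 without array 51. Before adjustment rank products counted 7 as higher (2.85% of all probe sets) and 3 as lower (2.85%). Limma counted 5 as higher (2.49%) and 0 as lower (2.58%). The 3 that rank products counted as lower were Junb (-0.42, SE 0.20), Egr1 (-0.20, SE 0.35) and Klf6 (-0.31, SE 0.15), named after their values were seen. Jun read 7.06, 7.30 and 7.19 in the controls and 8.19, 7.97 and 7.45 in AAV-PIK3CD (0.69, SE 0.18, rank products adjusted p = 0.214). Ccn1 (0.60, SE 0.15) and Fosl1 (0.53, SE 0.16) were also above all controls.

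**Figure D4:**
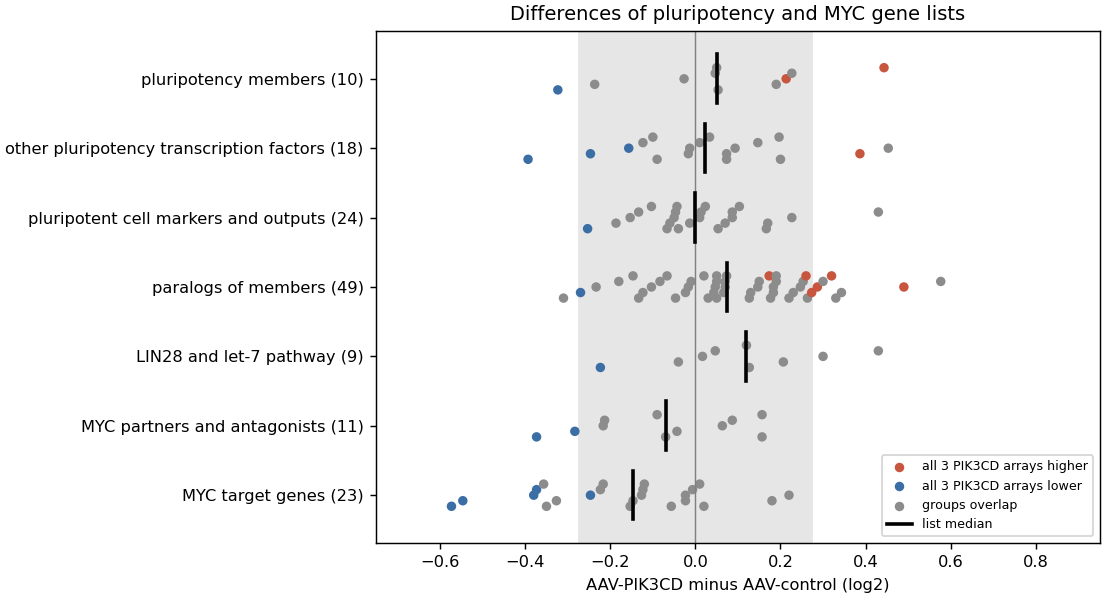
Differences (AAV-PIK3CD minus AAV-control, log2, horizontal axis) of the single genes of 7 lists, with the number measured in brackets, coloured by whether all 3 AAV-PIK3CD arrays lie above (red) or below (blue) all controls, list medians as black bars and the 5th to 95th percentile of all probe sets in grey. The medians run from -0.15 for MYC target genes to 0.12 for the LIN28 and let-7 pathway, and the members' median is 0.05.

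The genes whose pattern over the 6 arrays was most like that of 4 members were listed as a description, in which all points share the same 6 arrays. For Nanog these were Lrrc27 (Pearson r = 0.994), Olfr1255 (0.992) and Ssx9 (0.988), for Pou5f1 Parp3 (0.996), Mylk (0.992) and Faxc (0.990). Klf4 was followed most closely by Bhlhe23 (0.992), Zfp266 (0.991) and Capn10 (0.984), and Myc by Tarsl2 (0.989), Iqsec2 (0.986) and Olfr792 (0.983). Of the 19504 genes compared, 127 exceeded 0.9 for Nanog (0.651%) and 87 for Myc (0.446%). The named genes were picked as the highest of 19504 over only 6 arrays. Their r values are therefore high by selection and do not show that they act with the member. None of these 12 was a member, and the member most like Nanog was Lin28a (0.889), while that most like Pou5f1 was Sox2 (0.820).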

How the data were processed

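Total RNA (100 ng per array) was read on Clariom S arrays for mouse (Affymetrix). RMA normalisation was done by the authors, and the deposited values are log2 levels with 2 decimals. The software version is not given in the sources used here. Arrays have no depth, and 3 per group limit the precision.

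All 22206 probe sets were kept, and the platform annotation gave 1 symbol to 19572 of them and none to 2634. Rank products, named in the study's methods, was the main test (9 pairs, 1000 shuffles of the gene order, 2-sided, Benjamini-Hochberg over all probe sets at 0.05). Limma 3.58.1 in R 4.3.3 (lmFit, eBayes) gave the SE and intervals, and single values had a 2-sided exact permutation test. The limma p-values use the spread between arrays. Those of rank products do not, since they set the ranks of a gene against ranks from shuffled genes. Both fits were tested on simulated data. Differences are AAV-PIK3CD minus AAV-control.

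The members, the lists and the tests were chosen with earlier results of these data known. All members were named, with up to 3 genes of each other list, except the cell type lists, with the smallest rank products p. For Nanog, Pou5f1, Klf4 and Myc the 3 genes with the highest correlation were named too. Of the 9 lists of cell type markers no gene is named. Those of cholangiocytes, Kupffer cells, endothelium, stellate cells, and lymphocytes and neutrophils are not described here. Other genes are said to be named after their values were seen. Some genes of the lists had no symbol match and were not counted. Alternatives were limma, the methods' t-test, 3 other scalings, filters on dim probe sets, other rules for shared symbols and each array left out. Promoter windows came from RefSeq and primers from the study's supplementary list. Other steps ran in Python 3.11.15 (pandas 2.3.3, numpy 2.4.6, matplotlib 3.10.9, scipy 1.17.1).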

Additional observations from a re-analysis of the deposited data

How the results depend on the processing

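The count of members past rank products was 0 in all 15 alternatives, in which the lowest adjusted p of any member was 0.520 (limma 0.932, the methods' t-test 0.960). Of 140 values of single members under the alternatives, 130 kept their sign and side of the threshold. The other 10, each with 1 array left out, changed sign. Limma, the t-test, the filters and the rules for shared symbols leave a member's difference as it is, since each member had 1 probe set. Under these settings its sign could not change, and the mean over the probe sets of a symbol also kept the main adjusted p. Only the other scalings and the arrays left out could move a difference. With 1 array left out Sox2 ranged from -0.055 to 0.18, Klf4 from -0.083 to 0.082, Sall4 from -0.13 to 0.19, Esrrb from -0.042 to 0.13, Zfp42 from -0.047 to 0.46 and Myc from -0.57 to 0.0067. The median difference of the members ranged from 0.0092 (without array 51) to 0.14 (without array 49), and it was 0.21 for the 3 members left once the dimmest 50% of probe sets were dropped. It was 0.037 after quantile normalization, 0.038 after cyclic loess and 0.018 after median centring. The median of the 42 other pluripotency genes, 0.01, was -0.019 after quantile normalization, -0.023 after cyclic loess and -0.023 after median centring. It was -0.0017 with the dimmest 25% of probe sets dropped and -0.095 for the 10 genes left with the dimmest 50% dropped, and it ranged from -0.025 (without array 52) to 0.03 (without array 49). These filters leave fewer genes. Median centring takes out the gap between array medians, which were 4.82, 4.81 and 4.81 in the controls and 4.87, 4.84 and 4.83 in AAV-PIK3CD. The cause of the sign changes after quantile normalization, after cyclic loess and without array 52 was not tested. No paired analysis was possible because the groups share no replicate numbers.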
